A study of Mus musculus with 21 samples.

Results

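The 10 genes described here are classic targets of type I interferon, namely Ifit1, Ifit2, Ifit3, Isg15, Usp18, Rsad2, Ifi44, Ifi35, Bst2 and Rtp4. They were chosen by symbol, with earlier results of these data known, and all 10 were found among the 24391 gene symbols of the count files. The tissues sequenced were brain, liver and skin, taken at birth (P0) from 2 Jak1 knock-in (KI) and 5 wild type (WT) C57BL/6 mice (C57BL/6J in the methods of the study), with 1 library per mouse and tissue and 21 libraries in all. The KI mice were heterozygous, written Jak1 H595D/+;I596I/+;Y597Y/+, so their edited allele carried the H595D substitution in JAK1 together with the silent changes I596I and Y597Y. The allele was made by CRISPR-Cas9 editing and was passed on by a mosaic founder male, and mice with the silent changes alone were not among these samples. No transgene, Cre or treatment was involved. The label "KI 1" in brain, liver and skin was read as 1 mouse, and likewise for the other numbers, so the tissues are not independent sets of animals.

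Each library held between 26549326 and 38388133 read counts on genes. Levels are given as CPM, that is, counts scaled to a common library size, after TMM normalization, which corrects for differences in library composition. A gene was called changed at a Benjamini-Hochberg adjusted p below 0.1 in the quasi-likelihood test of edgeR, fitted on all genes that passed a filter on low counts, and all 10 genes passed it in all 3 tissues. The labelled tissues were checked by their markers. Albumin (Alb) was at 124104 to 164238 CPM in the liver, at 0.18 to 5.61 CPM in the brain and at 2.07 to 25.7 CPM in the skin, so little RNA of the liver was present in the other tissues. Transthyretin (Ttr), which the choroid plexus also makes, ranged from 16.8 to 2071 CPM between the brain libraries. The summed level of 6 keratinocyte markers (Krt14, Krt5, Krt10, Krt1, Lor and Dsg1a) ranged from 748 to 14455 CPM between the skin libraries. The RNA of the skin was of lower integrity than that of the liver, according to the methods of the study.

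Type I interferons signal through the receptor chains IFNAR1 and IFNAR2, which carry the kinases TYK2 and JAK1. These activate a complex of transcription factors that contains IRF9 and binds a DNA element, the interferon-stimulated response element, near the start of target genes. The products of the genes described here act at different steps against viruses. IFIT proteins bind foreign RNA and hinder its translation, ISG15 is a ubiquitin-like protein that is linked to other proteins, and USP18 both removes ISG15 and blocks signalling at IFNAR2. RSAD2 (viperin) makes a nucleotide that stops viral polymerases, BST2 (tetherin) holds budding virus at the cell surface, and RTP4 binds viral RNA. IFI44 and IFI35 are cytoplasmic proteins known mainly for their induction by interferon. JAK1 also serves the receptors of interferon gamma and of the interleukin-6 family.

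Promoter sequences were available for 8 of the 10 genes, those other than Usp18 and Rtp4, in a RefSeq table of the GRCm38.p6 assembly that reaches from 250 bases before the start of each gene to 50 bases after it. They are shown because the element named above links these genes to their known regulator. Its core was searched as GAAANNGAAA on either strand, and overlapping matches were counted separately. A match was present for 5 of the 8 genes and in 3.44% of all 32851 promoters in the table (1131). For each of the 5 genes, 100 bases upstream of the start are printed 5′ to 3′ on the strand of the gene, with the bases covered by GAAANNGAAA or its reverse complement in capitals.
Isg15 (chr4:156200859-156200958, minus strand): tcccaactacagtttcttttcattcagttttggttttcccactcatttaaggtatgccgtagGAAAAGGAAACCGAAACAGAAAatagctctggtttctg
Ifit1 (chr19:34640749-34640848, plus strand): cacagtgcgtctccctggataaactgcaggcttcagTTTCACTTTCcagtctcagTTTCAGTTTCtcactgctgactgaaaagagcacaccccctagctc
Ifit3 (chr19:34583349-34583448, plus strand): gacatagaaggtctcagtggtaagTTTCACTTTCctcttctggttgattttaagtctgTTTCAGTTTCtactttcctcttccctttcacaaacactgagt
Rsad2 (chr12:26456513-26456612, minus strand): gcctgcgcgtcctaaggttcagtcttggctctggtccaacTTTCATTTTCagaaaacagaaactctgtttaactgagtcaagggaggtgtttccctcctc
Bst2 (chr8:71537533-71537632, minus strand): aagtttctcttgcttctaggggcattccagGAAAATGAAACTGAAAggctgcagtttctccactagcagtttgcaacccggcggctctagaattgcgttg

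Isg15 held 3 overlapping matches within its run of capitals, whose first base lay 78 bases and whose last base lay 57 bases before the start of the gene. Bst2 held 2 overlapping matches between 130 and 115 bases before its start. Ifit1 and Ifit3 each held the same pair of matches, TTTCACTTTC followed by TTTCAGTTTC, which began 104 and 85 bases before the start of Ifit1 and 156 and 122 bases before that of Ifit3. Rsad2 held 1 match, which began 120 bases before its start. No match was found in the windows of Ifi44, Ifi35 and Ifit2.

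In the WT mice all 10 genes had their highest mean level in the liver and their lowest in the brain. The RNA came from whole tissue, where more cells of a type and more RNA per cell cannot be told apart. Ifit2, Ifit3 and Ifit1 lie in this order on the plus strand of chromosome 19 (NCBIM37, the mm9 assembly, from 34625184 to 34650909, 34658021 to 34663221 and 34715361 to 34724499). In a fit of the 15 WT libraries, all 10 genes were called in each pair of tissues. This was also common among the 17071 genes tested, of which 40.2% were called higher in liver than in brain, 40.3% higher in skin than in brain and 32.5% higher in liver than in skin. The fold differences of the genes were therefore more informative than their calls. The range between tissues ran from 2.19-fold for Ifit2 to 395-fold for Rsad2, both between liver and brain.

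Rsad2 (chromosome 12, 27127618 to 27141317, minus strand) had the widest range. Its level was 621, 574, 578, 577 and 541 CPM in the livers of WT 1 to WT 5. In the skin it was 11, 13.6, 14.0, 5.36 and 9.66 CPM, and in the brain 0.787, 2.05, 1.51, 1.84 and 1.07 CPM. The 3 sets of values were far apart, and the spread within the liver was the smallest of the 10 genes (coefficient of variation 4.90%, SD 28.3 CPM around a mean of 578, n = 5). The log2 difference of brain minus liver was -8.63 (SE 0.33, adjusted p = 1.42e-12 in edgeR), and that of liver minus skin was 5.75 (SE 0.29, adjusted p = 9.32e-11).

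Isg15 (chromosome 4, 155573533 to 155574927, minus strand) and its protease Usp18 (chromosome 6, 121195924 to 121220934, plus strand) followed in the size of the difference between liver and brain. Isg15 was at 137 ± 22.8 CPM (SD, n = 5) in the liver, 10.3 ± 3.56 in the skin and 3.41 ± 1.78 in the brain. Usp18 was at 59.7 ± 6.39, 5.73 ± 2.17 and 1.88 ± 0.888 CPM. Liver exceeded brain 40.2-fold for Isg15 and 31.8-fold for Usp18, and exceeded skin 13.3-fold and 10.4-fold.

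For the other genes, liver and skin were closer together than for Isg15, Usp18 and Rsad2. Ifi35 (chromosome 11, 101309721 to 101320012, plus strand) was at 51.8 ± 4.75 CPM in the liver, 21.2 ± 2.16 in the skin and 2.39 ± 0.848 in the brain. The gene Gm11626 overlaps Ifi35 on the opposite strand, and the library kit does not mark strand, so reads of the pair cannot be told apart. Bst2 (chromosome 8, 74058163 to 74061336, minus strand) was at 90.7 ± 10.2, 61.2 ± 11.4 and 7.93 ± 5.04 CPM, and its difference between liver and skin was 1.48-fold, at an adjusted p of 0.0983. That call was kept in 4 of 9 alternative settings, with adjusted p between 0.0304 and 0.218. Rtp4 (chromosome 16, 23610005 to 23614308, plus strand) and Ifi44 (chromosome 3, 151393886 to 151412911, minus strand) were 1.99-fold and 1.66-fold higher in liver than in skin.

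Ifit2 stood apart from Ifit1 and Ifit3. Its WT mean was 38.1 CPM in the liver, 28.7 in the skin and 17.4 in the brain, and the lowest liver value (27.3 CPM, WT 5) lay within the range of the skin (26.4 to 31.2 CPM). The difference between liver and skin was 0.41 on the log2 scale (SE 0.18, adjusted p = 0.0505) and was called in 6 of 9 alternative settings. Ifit1 was at 25.1, 5.98 and 1.35 CPM and Ifit3 at 23.8, 6.77 and 1.07 CPM in the same order of tissues. In the brain Ifit2 was the most abundant of the 10 genes by CPM, a scale that does not account for gene length.

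Levels of different genes were compared per kilobase of exon, using the union of annotated exons. The annotation behind the counts is not given and lacks some of the same gene symbols, so the lengths behind this scale are approximate. On this scale the WT liver had its highest levels for Isg15 (181 ± 30.2 CPM per kb, SD, n = 5), Rsad2 (134 ± 6.55) and Bst2 (119 ± 13.4), while Ifi44 was lowest at 1.96 ± 0.443. In the skin Bst2 led at 80.1 ± 14.9, followed by Isg15 at 13.6 ± 4.71 and Ifi35 at 12.3 ± 1.25, and the ranges of Isg15 and Ifi35 overlapped. In the brain Bst2 was at 10.4 ± 6.59, Isg15 at 4.51 ± 2.36 and Ifit2 at 4.44 ± 0.694, and Ifit3, Ifit1, Rsad2 and Ifi44 lay below 1, with Ifi44 lowest at 0.272 ± 0.0532. The order in the brain was thus uncertain beyond Bst2, and even Bst2 ranged from 4.15 to 16.1 CPM among the 5 WT brains.

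**Figure D1:**
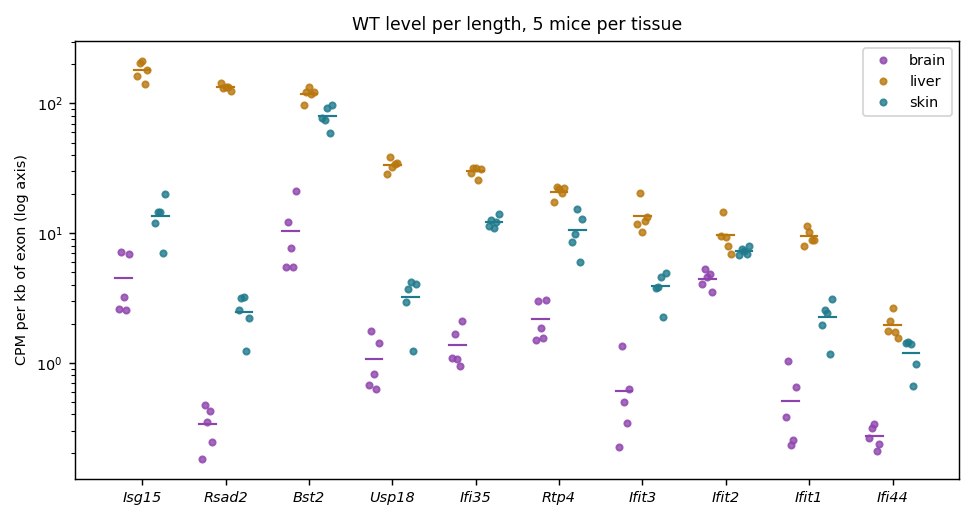
Level per kilobase of exon (CPM per kb, log axis) of each gene in the 5 WT libraries of brain, liver and skin; points are mice, bars are means, and genes are ordered by their mean in the liver. All 10 genes have their highest mean in the liver and their lowest in the brain, and the gap is widest for Rsad2 and narrowest for Ifit2.

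KI and WT livers were compared to ask whether the altered JAK1 goes along with higher transcript levels of interferon targets. In the liver 6 of the 10 genes rose in KI mice and none fell. Of the 14966 genes tested there, 3.89% rose and 1.68% fell. They were Ifit1, Rtp4, Bst2, Isg15, Ifi44 and Usp18, with fold changes from 1.36 for Usp18 to 2.19 for Ifit1. The median log2 fold change of the 10 genes was 0.76, against -0.02 over all genes tested.

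Ifit1 was at 57.3 and 52.5 CPM in the livers of KI 1 and KI 2, and at 21.3, 29.99, 27.3, 23.3 and 23.3 CPM in those of WT 1 to WT 5. Both KI values lay far above the highest WT value. The log2 fold change was 1.13 (SE 0.14, edgeR adjusted p = 0.00544), and Ifit1 ranked 37 among all genes tested in the liver by p. It was called in 12 of 13 alternative settings.

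Isg15 was at 247 and 272 CPM in the KI livers, and at 124, 156, 162, 106 and 137 CPM in the WT livers. Every KI value exceeded every WT value, and the log2 fold change was 0.92 (SE 0.15, edgeR adjusted p = 0.0172). Rtp4 was at 57.9 and 67.8 CPM in the KI livers, against 27.4, 35.9, 34.5, 32.0 and 34.8 CPM in the WT livers. Again the groups did not overlap, and the log2 fold change was 0.93 (SE 0.12, edgeR adjusted p = 0.00713).

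Bst2, a gene with a high level already in WT mice, was at 160 and 148 CPM in the KI livers. In the WT livers it was at 74.3, 93.1, 102, 89.8 and 94.5 CPM. The KI values were the 2 highest, and the log2 fold change was 0.76 (SE 0.12, edgeR adjusted p = 0.0127). Ifi44 rose in its mean from 11.98 to 23.8 CPM (log2 fold change 0.99, SE 0.21, edgeR adjusted p = 0.0403), with KI 1 at 20.8 CPM and the highest WT at 16.3. Usp18, the negative regulator, had the smallest called change at 0.44 (SE 0.12, edgeR adjusted p = 0.0850), and it was called in 5 of 13 alternative settings.

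The other 4 genes did not pass the test in the liver. Ifit3 was at 40.7 and 40.1 CPM in the KI livers and at 20.7, 35.3, 17.9, 21.7 and 23.3 CPM in the WT livers. WT 2 came close to the KI values, and the log2 fold change was 0.76 (SE 0.22, edgeR adjusted p = 0.111). Rsad2, the most abundant of the genes in the liver by CPM, was at 723 and 697 CPM against 541 to 621 CPM, a difference of 0.30 on the log2 scale (SE 0.09, edgeR adjusted p = 0.120). Ifi35 differed by 0.27 (SE 0.11, edgeR adjusted p = 0.219). Ifit2 was at 44.5 and 45.7 CPM in the KI livers, and WT 2 exceeded both at 57.3 CPM. Its difference of 0.24 (SE 0.24, edgeR adjusted p = 0.643) was about the size of its standard error, and it was the only one of the 10 genes whose KI and WT livers overlapped. Both KI values lay above all 5 WT values for the other 9 genes, which was so for 13% of all genes in the liver.

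The number of calls in the liver depended on the fit. The Wald test of DESeq2 called 8 genes, adding Ifit3 and Rsad2, and called 5.67% of all genes higher. A single fit of all 21 libraries shares 1 estimate of spread among tissues. It called none of the 10, and its share of all genes is not given here. Its median log2 fold change of the 10 was 0.75, with edgeR adjusted p from 0.144 (Ifi44) upward. The count was 3 without KI 1 and 1 without KI 2, where 1.28% and 0.320% of all genes were called higher. It ran from 5 to 7 with 1 WT mouse left out, where 2.62% to 5.28% of all genes were called higher.

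**Figure D2:**
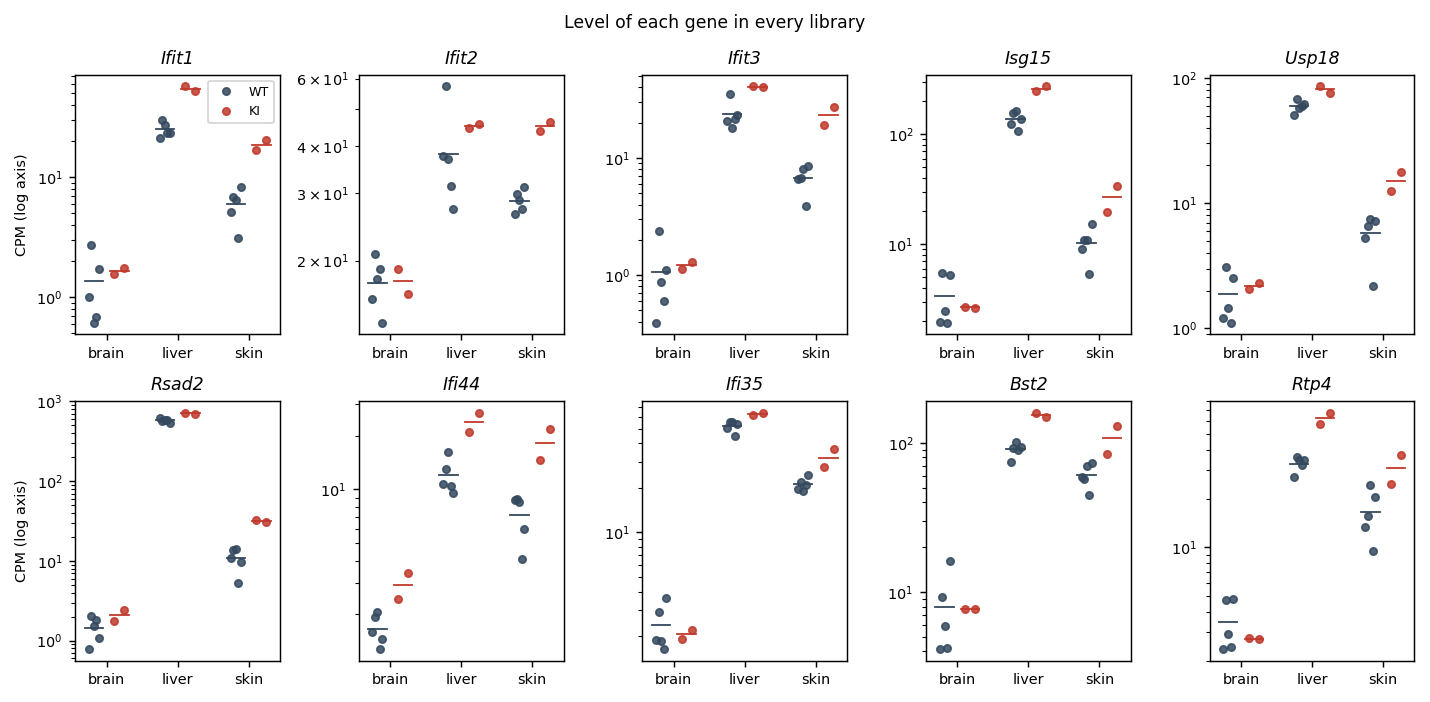
CPM (log axis) of each gene in every library, grouped by tissue, with WT mice in dark grey, KI mice in red and group means as bars. In the liver the KI points lie above all WT points for every gene except Ifit2, in the skin for all 10 genes, and in the brain for Ifi44 alone.

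Markers of blood and tissue leukocytes also differed between KI and WT livers, where 3.89% of all genes tested rose. Of 9 macrophage markers, 7 rose (Adgre1, Aif1, C1qa, C1qb, Cd68, Csf1r and Fcgr1, with log2 fold changes from 0.49 to 0.85), and none of the 9 was at 0 in any group. Their summed level was 1865 and 1596 CPM in the KI livers and 1019 to 1366 CPM in the WT livers. Of 7 neutrophil markers 3 rose, of 6 B cell markers 3 rose, of 6 T and NK cell markers tested 1 rose, and of 5 markers of plasmacytoid dendritic cells tested 1 rose (Ly6d). The summed neutrophil markers were at 8276 to 9753 CPM in the KI livers and at 5187 to 6812 CPM in the WT livers, and the summed B cell markers at 166 to 176 and 102 to 134 CPM. The summed T and NK cell markers were at 19.4 to 20.2 CPM in KI and 11.1 to 12.9 CPM in WT livers. Siglech, a defining marker of plasmacytoid dendritic cells, which BST2 also marks, was at 1.47 CPM in KI and 1.38 CPM in WT livers and did not pass the test. The part of these cell types in the rise of the 6 genes was not tested.

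In the skin none of the 10 genes passed the test in edgeR, although all 10 were higher in both KI mice than in each of the 5 WT mice. Of 16163 genes tested there, 4 rose in KI skin (0.0247%) and none fell (0%). At an unadjusted p under 0.05 all 10 genes were higher in KI skin, which was so for 2.89% of the genes tested. Complete separation of the groups in that direction was found for 4.91% of the genes tested. The median log2 fold change of the 10 genes was 1.35, against -0.03 over all genes.

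Ifit3 was at 19.1 and 27.0 CPM in the skin of KI 1 and KI 2, and at 6.56, 6.75, 8.06, 3.92 and 8.56 CPM in that of WT 1 to WT 5. The lower KI value exceeded the highest WT value by a wide margin. The log2 fold change of 1.77 (SE 0.28) was the largest of the 10 genes in the skin, with an unadjusted p of 0.000278 and an adjusted p of 0.310 in edgeR. Ifit1 was at 16.7 and 20.4 CPM against 5.17, 6.83, 6.48, 3.13 and 8.31 CPM, with a log2 fold change of 1.63 (SE 0.32, edgeR adjusted p = 0.510).

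Rsad2 was at 32.8 and 30.9 CPM in KI skin, and at 11, 13.6, 14.0, 5.36 and 9.66 CPM in WT skin. It was the only one of the 10 genes for which KI 1 exceeded KI 2, and its log2 fold change was 1.57 (SE 0.32, edgeR adjusted p = 0.522). Isg15 was at 19.6 and 33.9 CPM against 9.09, 10.99, 10.96, 5.31 and 15.1 CPM. Its KI values were far from each other, and KI 1 lay nearer to WT 5 than to KI 2. The log2 fold change was 1.38 (SE 0.36, edgeR adjusted p = 0.747).

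Ifit2 had a smaller but tighter difference in the skin, from 26.4, 29.9, 28.8, 27.4 and 31.2 CPM in WT mice to 43.8 and 46.1 CPM in KI mice. Its log2 fold change was 0.65 (SE 0.10), with an unadjusted p of 0.000279 and an adjusted p of 0.310 in edgeR. Usp18 differed by 1.40 (SE 0.41), Ifi44 by 1.33 (SE 0.31), Rtp4 by 0.90 (SE 0.33), Bst2 by 0.82 (SE 0.22) and Ifi35 by 0.59 (SE 0.15) on the log2 scale. For Rtp4 the KI 1 value of 24.6 CPM lay only just above that of WT 3, at 24.1 CPM.

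The Wald test of DESeq2 called 6 genes in the skin (Ifit1, Ifit2, Ifit3, Isg15, Rsad2 and Ifi44), with 96 of all 16163 genes (0.594%) called higher. The fit of all 21 libraries called Rsad2 and Ifi44, and its share of all genes is not given here. Without KI 2 the median log2 fold change of the 10 genes was 0.96, and without KI 1 it was 1.60.

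**Figure D3:**
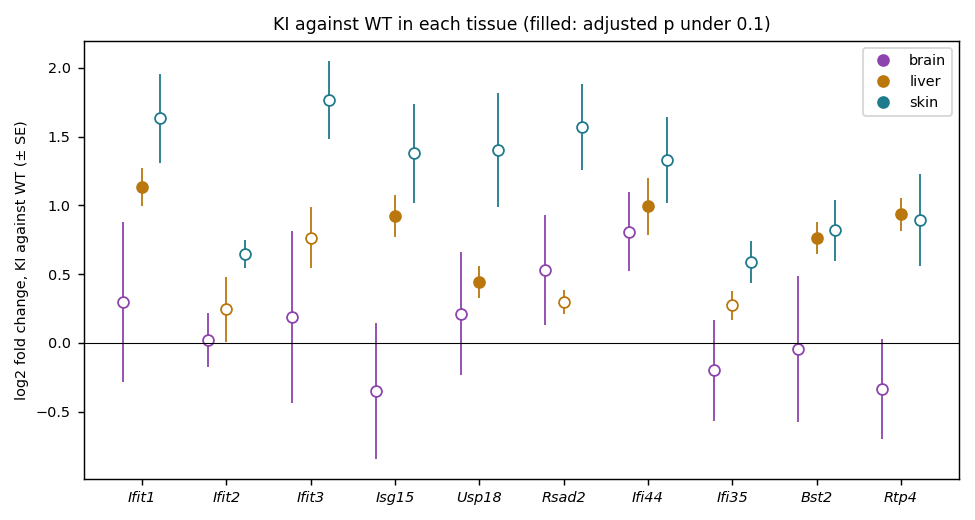
Log2 fold change of KI against WT mice with its standard error for each gene in brain, liver and skin, from edgeR fits of 7 libraries per tissue; filled points had an adjusted p under 0.1. The 6 filled points are all in the liver, while the skin points are at 0.59 to 1.77 and open, with longer error bars than in the liver for all genes except Ifit2, and the brain points lie on both sides of 0.

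The skin libraries varied in their content of keratinocyte RNA. The summed level of the 6 keratinocyte markers was 8095, 3258, 4809, 14455 and 1270 CPM in WT 1 to WT 5, and 11885 and 748 CPM in KI 1 and KI 2. WT 4, with the most keratinocyte RNA, had the lowest WT value for 8 of the 10 genes, and WT 5, with the least, had the highest for 6. KI 1 had more keratinocyte RNA than all WT libraries except WT 4 and KI 2 had less than all of them, and both lay above all WT libraries for all 10 genes. All 9 macrophage markers were tested in the skin and none was called, against 0.0247% of all genes called higher. Of the 9, 8 were higher in both KI mice than in all WT mice, against 4.91% of all genes. The summed level of the 9 markers was 782 and 1055 CPM in KI skin and 516 to 719 CPM in WT skin. The part of either cell type in the differences was not tested.

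**Figure D4:**
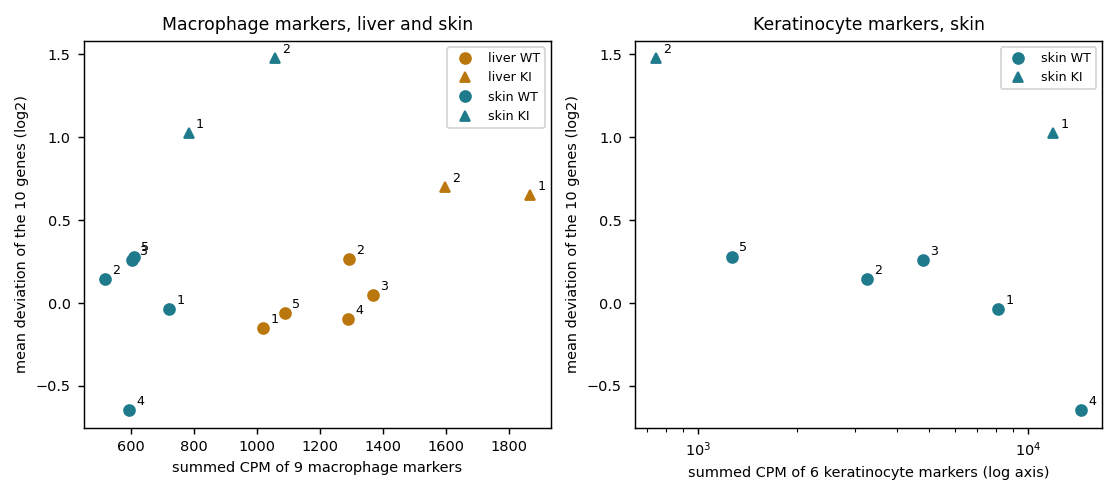
Mean deviation of the 10 genes from the WT mean of their tissue (log2) against the summed CPM of 9 macrophage markers in liver and skin (left) and of 6 keratinocyte markers in skin (right, log axis); circles are WT mice, triangles are KI mice, and the numbers are those of the mice. KI points lie highest and farthest to the right on the left panel within each tissue, and on the right panel KI 2 has the lowest and KI 1 the second highest keratinocyte markers, after WT 4, and both lie above all WT mice on the vertical axis.

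In the brain none of the 10 genes passed the test in edgeR or DESeq2, and no gene at all was called in the brain by edgeR in either direction (0% of 16322). With DESeq2, 80 genes were higher and 524 were lower by the same threshold. Without WT 5, the brain library with the fewest counts (26549326), edgeR called 672 genes higher and 1026 lower, none of them among the 10. At an unadjusted p under 0.05, 1 of the 10 genes was higher, against 2.8% of all genes. The lowest log2 fold change was -0.35, for Isg15, and the highest 0.81, for Ifi44. Values above 0 were found for 6 of the 10 genes, against 47.2% of all genes, and the median was 0.10, against -0.02 over all genes.

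Ifi44 was at 2.45 and 3.40 CPM in the KI brains, and at 1.60, 1.92, 2.07, 1.28 and 1.46 CPM in the WT brains. It was the only one of the 10 genes with both KI values above all WT values, which was so for 11.2% of all genes in the brain. The log2 fold change was 0.81 (SE 0.29), with an unadjusted p of 0.0215 and an adjusted p of 0.387 in edgeR. Isg15 was at 2.70 and 2.64 CPM in the KI brains and at 1.97, 5.45, 2.45, 1.93 and 5.25 CPM in the WT brains. The KI values were close together and lay between the 3 low and the 2 high WT values.

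For Bst2 the WT brains differed among themselves by more than the KI and WT means did. It was at 4.15, 9.27, 5.90, 4.21 and 16.1 CPM in WT 1 to WT 5, and at 7.68 and 7.66 CPM in the KI brains. WT 2 was the highest WT brain for 6 of the 10 genes and WT 5 for 3, and WT 1 and WT 4 were lowest for 4 each. Ifit1 ranged from 0.613 CPM in WT 3 to 2.74 CPM in WT 2, on 24 to 104 counts per library, and Ifit3 from 16 to 90 counts. Summed endothelial markers (6 genes) were at 232 and 244 CPM in WT 2 and WT 5, at 218 and 237 CPM in the KI brains and at 146 to 164 CPM in WT 1, WT 3 and WT 4. Summed macrophage and microglia markers were highest in WT 2 (157 CPM) and WT 5 (132 CPM), with the KI brains at 118 and 124 CPM and the other WT brains at 86.5 to 102 CPM. Their part in the spread of the 10 genes was not tested.

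The KI effects in the 3 tissues were compared in 1 fit of all 21 libraries. None of the 10 genes had an effect that differed between tissues at an adjusted p under 0.1. Of all 18062 genes tested, 2.81% differed between brain and liver, 0% between brain and skin and 0.0997% between liver and skin. The values nearest to the threshold in unadjusted p were those of Rsad2, whose effect was 1.57 in the skin and 0.30 in the liver when each tissue was fitted alone, and of Isg15. For Rsad2 the difference of liver minus skin was -1.31 (SE 0.41, unadjusted p = 0.00511, edgeR adjusted p = 0.509). For Isg15 the difference of brain minus skin was -1.66 (SE 0.56, unadjusted p = 0.00835, edgeR adjusted p = 0.542). At an unadjusted p under 0.05, brain also lay below skin for Ifit1, Ifit3, Rsad2, Ifi35 and Rtp4, and the difference of brain minus liver for Rtp4 was -1.17 (SE 0.45, edgeR adjusted p = 0.217). Of all genes, 15.1% differed between brain and liver at that unadjusted level, 7.41% between brain and skin and 5.54% between liver and skin. The larger fold changes in the skin than in the liver were thus not shown to differ. Mean levels in KI skin stayed below those in WT liver for every gene except Ifit2, Ifi44 and Bst2, and for Ifit1 they were 18.6 CPM in KI skin and 25.1 CPM in WT liver.

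The mean deviation of the 10 genes from the WT mean of their tissue was calculated for each mouse on the log2 scale. In the liver it was 0.65 and 0.70 in KI 1 and KI 2, and -0.15, 0.27, 0.05, -0.10 and -0.06 in WT 1 to WT 5. In the skin it was 1.03 and 1.48 in the KI mice, and -0.04, 0.14, 0.26, -0.65 and 0.28 in the WT mice. In the brain it was 0.24 and 0.36 in the KI mice, and -0.48, 0.68, -0.15, -0.39 and 0.35 in the WT mice. The KI mice therefore lay above all WT mice in liver and skin, whereas in the brain WT 2 lay above both. WT 2 was also the highest WT mouse in the liver, where it led for 6 of the 10 genes, but not in the skin, where WT 5 led for 6.

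**Figure D5:**
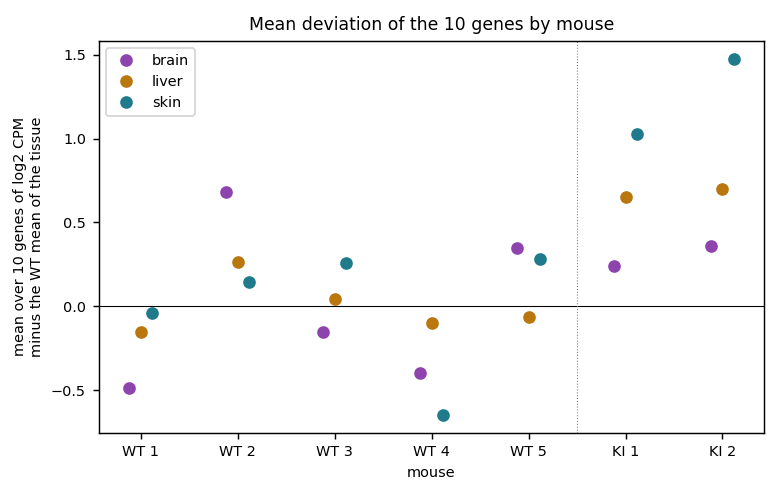
Mean over the 10 genes of log2 CPM minus the WT mean of the tissue, for each of the 5 WT and 2 KI mice (horizontal axis), with 1 point per tissue. The KI skin points (1.03 and 1.48) and liver points (0.65 and 0.70) lie above all WT points of the same tissue, and the KI brain points (0.24 and 0.36) lie below WT 2 (0.68).

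Among the 15 WT libraries, after the mean of each tissue was removed, the 10 genes varied together to different degrees. The correlation of each gene with the mean of the other 9 was highest for Usp18 (Pearson's r = 0.95), Isg15 (0.94) and Rtp4 (0.91), and was 0.88 for Ifit3 and 0.86 for Ifit1. It was lowest for Ifit2 (0.23), Ifi44 (0.46) and Rsad2 (0.50). The points are mice that share dissection, library and depth with all 10 genes, so these values only describe the libraries. Ifit2 thus differed from Ifit1 and Ifit3 in its range between tissues, in its correlation with the others and in its overlap between KI and WT livers.

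Ifit3b is a near-identical paralog of Ifit3, and reads of the pair may be split or lost according to how reads with several matches were counted. Ifit3b counts were 20.6% to 59.9% of those of Ifit3 in the same library (median 36.9%, 21 libraries). Its level was 10.8 CPM in WT and 17.0 CPM in KI livers, a difference of 0.66 on the log2 scale (SE 0.19, edgeR adjusted p = 0.114). In the skin it was 2.39 and 8.36 CPM, a difference of 1.81 (SE 0.34, edgeR adjusted p = 0.466). Both differences were close to those of Ifit3, and the 2 genes are best read as 1 uncertain pair.

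Few counts were found for the ligands that induce these genes. As for Ifit3b, reads with several matches may have been lost, so low counts need not mean little transcript. The 18 type I interferon genes found in the files together had 0 to 3 counts per brain library, 1 to 11 per liver library and 0 to 2 per skin library, and none passed the filter. Summed over the liver libraries they stood at 7 and 11 counts in KI mice and at 1 to 10 counts in WT mice, too few for a comparison. Of the receptor chains, Ifnar1 and Ifnar2 did not pass the test in any tissue, and Ifngr2, a chain of the interferon gamma receptor, rose in the liver (log2 fold change 0.38, SE 0.08, edgeR adjusted p = 0.0403). Ifngr2 was the only one of 6 receptor genes called in any tissue. Of all genes, 3.89% were called higher in the liver, 0.0247% in the skin and 0% in the brain. Both KI values of Ifnar2 lay above all WT values in liver and skin (log2 fold changes 0.30 and 0.31), but not in the brain. Those of Ifnar1 did so in no tissue. Such separation was found for 13% of all genes in the liver and 4.91% in the skin.

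Of the kinases and transcription factors behind the receptor, Jak1, Jak2, Tyk2, Stat2 and Irf9 were not called in any of the 3 tissues. Irf9 differed by 0.08 in the liver (SE 0.09, edgeR adjusted p = 0.696) and by 0.45 in the skin (SE 0.22, edgeR adjusted p = 0.999). Of 5 inhibitors, Socs3 alone rose, in the liver, where 3.89% of all genes rose. It went from 26.2 to 112 CPM there (log2 fold change 2.09, SE 0.31, edgeR adjusted p = 0.0120). In the skin Socs3 differed by 1.38 (SE 0.45, edgeR adjusted p = 0.944). Socs1, the other cytokine-induced inhibitor of JAK kinases in the list, differed by 0.72 in the liver (SE 0.26, edgeR adjusted p = 0.195).

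The enzymes that link ISG15 to proteins had smaller fold changes than Isg15 in liver and skin, and the difference was not tested. Uba7, the activating enzyme, Ube2l6, the conjugating enzyme, and the ligases Herc6 and Trim25 were not called in any tissue. In the liver their log2 fold changes were 0.15, 0.08, 0.32 and 0.27. In the skin they were 0.81, 0.44, 0.91 and 0.82, and in the brain 0.10, -0.22, 0.19 and 0.62, against -0.35 for Isg15. In the skin 3, all but Ube2l6, were higher in both KI than in all WT mice, against 4.91% of all genes. The same held in the liver for 2 (Herc6 and Trim25), against 13%, and in the brain for 1 (Trim25), against 11.2%. Trim25 had the lowest adjusted p among the 4 enzymes in the skin (0.253 in edgeR), at 54.6 CPM in WT and 96.2 CPM in KI mice.

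Other genes induced by type I interferon were taken from a list of 32. In the liver 17 of them rose and none fell, against 3.89% and 1.68% of all genes, with a median log2 fold change of 0.71 over the list. Those with the lowest p were Oas3 (1.13, SE 0.15, edgeR adjusted p = 0.00912), Ifitm3 (0.90, SE 0.13, edgeR adjusted p = 0.00952) and Oas1a (1.11, SE 0.16, edgeR adjusted p = 0.00992). In the skin, where 0.0247% of all genes were called higher, Oasl1 alone was called, from 3.44 to 13.4 CPM (log2 fold change 1.96, SE 0.22, edgeR adjusted p = 0.0899). All 32 differences in the skin were above 0, against 43.3% of all genes, with a median of 0.93, against -0.03 over all genes. In the brain, where 0% of all genes were called, none of the 30 genes tested was called. Their median was 0.30, against -0.02 over all genes. Among 15 sensors and factors that induce interferon, 5 rose in the liver and none was called elsewhere. Irf7, which amplifies interferon production and is itself an interferon target, rose from 117 to 247 CPM in the liver (log2 fold change 1.07, SE 0.12, edgeR adjusted p = 0.00440). It was at 21.4 and 58.7 CPM in WT and KI skin (1.46, SE 0.24, edgeR adjusted p = 0.331) and at 2.33 and 4.37 CPM in WT and KI brains (0.91, SE 0.31, edgeR adjusted p = 0.372). Zbp1, a sensor of nucleic acids, rose in the liver by 1.65 (SE 0.19, edgeR adjusted p = 0.00485).

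The KI effects of the genes with and without a match to the promoter element can be set side by side. The 5 genes with GAAANNGAAA differed by 0.30 (Rsad2) to 1.13 (Ifit1) in the liver and by 0.82 (Bst2) to 1.77 (Ifit3) in the skin on the log2 scale. Of the 3 genes with a promoter sequence and no match, Ifit2 and Ifi35 had the 2 smallest differences of all 10 genes in both tissues. In the liver, however, Ifi35 (0.27, SE 0.11) was close to Rsad2 (0.30, SE 0.09), which has a match. Ifi44, also without a match, differed by 0.99 in the liver and 1.33 in the skin. A second motif searched, TTCNNNGAA, had a match for 3 of the 8 genes (Ifit2, Ifi35 and Bst2) and in 8.3% of all promoters. These are descriptions of 8 genes with no test.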

How the data were processed

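Total RNA of newborn brain, liver and skin was sequenced as paired-end libraries made with the TruSeq RNA v2 kit. The authors trimmed the reads and aligned them to mm9 with TopHat2, and HTSeq is named in the submitters' processing notes; its version, annotation and strand setting are not given in the sources used here. The deposited values are raw counts for each gene symbol, without normalization. Their 5 summary lines were left out of all totals and tests. No columns were left unused.

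Samples were grouped by tissue and genotype as labelled. KI and WT mice (2 against 5) were compared within each tissue with edgeR 4.0.16 in R 4.3.3 (filterByExpr, TMM, quasi-likelihood test). WT tissues were compared over 15 libraries and KI effects between tissues over 21. The study itself used GFOLD and DESeq2. CPM were scaled by TMM within a tissue, and 1 constant per tissue (1.23 for brain, 0.709 for liver and 1.15 for skin) placed them on the scale of the WT comparison. Log2 values used a prior count of 2. CPM per kb used the union of exons in GENCODE M1 (NCBIM37, the mm9 assembly). Standard errors were derived from the log2 fold change and its F statistic. Within a tissue, the standard errors and p-values of KI against WT measure the spread between mice of these groups. The main fits of 15 and 21 libraries had no term for the mouse, so libraries of 1 mouse counted as independent there. No 2 libraries held identical counts.

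The members and lists were chosen with earlier results of these data known. Genes outside the 10 were named by role or by lowest p within their list. The alternatives were DESeq2 1.42.0 size factors and its Wald test, no filter beyond 1 count, 1 fit of all libraries, a covariate for Y-linked expression, replicate number or mouse as a block, a threshold of 0.05 and each mouse left out. Libraries with the same genotype and number in different tissues carry the same name and were taken as 1 mouse. On simulated counts with 200 changed genes, edgeR found 23.9% of the 2-fold changes when the spread was that of the brain (6 false calls), 59.7% for the liver (20 false calls) and 29.9% for the skin (5 false calls). Figures were drawn in matplotlib 3.10.9 (Python 3.11.15), and tables were handled in pandas 2.3.3. Items withheld for evaluation are left out.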

Additional observations from a re-analysis of the deposited data

How the results depend on the processing

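The counts of the 10 genes called were the most dependent on the fit. In the liver 6 were called, 0 in the fit of all 21 libraries, and between 1 (without KI 2) and 7 (without WT 2) with 1 mouse left out. In the skin 0 were called, 2 in the fit of all 21 libraries and 6 with the Wald test of DESeq2, which called 0.594% of all genes higher. The median log2 fold change in the skin was 1.35 and ranged from 0.96 to 1.60 with 1 mouse left out. In the brain it was 0.10 and ranged from -0.00544 (without WT 1) to 0.298 (without WT 2). Without WT 5, edgeR called 672 genes higher and 1026 lower in the brain, none of them among the 10. The causes of these shifts were not tested.

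KI and WT mice share the numbers 1 and 2, and the main fits did not pair them by number. Same-numbered libraries correlated in their deviations with r = 0.0217 and -0.0971 in the brain, -0.0267 and -0.0930 in the liver and 0.199 and 0.0361 in the skin. With only 2 KI mice, their deviations mirror each other, so the 2 values per tissue are not separate checks. A shared litter or batch was not tested. With a replicate block, 5 genes were called in the liver, where Usp18 was lost, and 0 in skin and brain. The share of all genes called with that block is not given here. With the mouse as a block, all 10 genes were called in each pair of WT tissues and 0 in each comparison of KI effects, as without it. In those comparisons of KI effects, 2.6% of all genes differed between brain and liver, 0% between brain and skin and 0.0941% between liver and skin.

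Differences near 0 changed sign in some settings. In the brain, Bst2 was at 0.0452 in the fit of all libraries, 0.299 with the replicate block and 0.133 with the Y-linked covariate, and it ranged from -0.197 to 0.404 with 1 mouse left out (0.0344 without WT 2). Ifit1 was at -0.0276 and Ifit2 at -0.0417 with the block. With 1 mouse left out, Ifit2 ranged from -0.0762 to 0.126 (-0.0359 without WT 5), Ifit3 from -0.0122 to 0.736 and Ifi35 from -0.304 to 0.0178. In the liver Ifit2 was at -0.0439 with the block. Of the differences between tissues, that of liver minus skin for Rtp4 was 0.00819 with DESeq2 size factors and 0.00809 with its Wald test. With 1 mouse left out it ranged from -0.166 to 0.218 for Rtp4 and from -0.431 to 0.320 for Bst2, and that of brain minus liver from -0.279 to 0.0844 for Usp18 and from -0.267 to 0.0132 for Ifit2. Of the other results for single genes, 929 kept their direction and side of the threshold, 12 came to pass it and 27 no longer did.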

Other observations

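Over the 15 WT libraries, with the mean of each tissue removed, the genes whose log2 CPM most resembled the mean of the 10 were Ifit3b (r = 0.95), Xaf1 (0.91), Oasl2 (0.91), Sult1a1 (0.90), Spon2 (0.90), Trim34a (0.90), Icam2 (0.89), Aga (0.88), Oas2 (0.88) and Vamp5 (0.88). They were ranked among 13647 genes, whose median r was 0.0389. Of these, 4 were on the lists used here, namely Ifit3b, Xaf1, Oasl2 and Oas2. In the liver Xaf1, Oasl2 and Oas2 rose in KI mice, with log2 fold changes of 0.69, 0.92 and 0.96 (edgeR adjusted p of 0.0935, 0.0666 and 0.0247). Sult1a1, Spon2, Aga and Vamp5 differed by 0.10, 0.06, 0.17 and 0.04 in the liver and were not called. The ranking rested on few mice, since between 1 (without WT 4) and 6 (without WT 3) of the 10 genes stayed among the first 10 when 1 WT mouse was left out. The points share dissection, library and depth, so the values are a description.

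Genes induced by interferon gamma were counted beside those of type I interferon. In the liver 6 of the 18 tested rose, against 3.89% of all genes, with a median log2 fold change of 0.60 over the list. In skin and brain none was called, against 0.0247% and 0% of all genes called higher, with medians of 0.91 and 0.28. JAK1 serves both receptors, and the counts do not separate the responses.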
